A study of Mus musculus with 24 samples.

Results

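The unfolded protein response and the integrated stress response were followed here through 35 genes: 23 genes of the endoplasmic reticulum (ER), of which 15 encode chaperones and folding enzymes, 4 serve ER-associated degradation and 4 are the stress sensors and the factor Xbp1, and 12 genes of the ATF4 arm. They were chosen by gene symbol, every symbol was found, and together they are 35 of the 12091 genes in the table. All 35 passed the filter on low values in each of the 4 experiments.

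The study compared mouse breast cancer with and without inhibition of pleiotrophin (PTN), a secreted heparin-binding growth factor, in 4 experiments of 6 samples, 3 in each group. In the 4T1 experiment, cells of this triple-negative line were implanted into the fourth mammary fat pad of female BALB/c mice aged 8 weeks, and in the PyMT experiment FVB/N mice with the MMTV-PyMT transgene, in which a mammary tumor virus promoter drives the middle T oncogene in mammary epithelium, were treated from 8 to 12 weeks of age. Mice of both received the control IgG C44 or the monoclonal anti-PTN antibody 3B10 at 15 mg/kg in 2 doses a week. The remaining 2 experiments used cultured cells, namely E0771, a C57BL/6 mammary adenocarcinoma line that metastasizes poorly, and E0771-LG, derived from a lung metastasis of E0771. In each line, cells with an shRNA against PTN (shPTN) were set against cells with the pLKO.1-puro vector carrying a sequence that targets EGFP (shCtrl). There was 1 PTN construct, and the shPTN and shCtrl cells were separately selected with puromycin, so an effect of the knockdown and a difference between selected populations cannot be told apart. The study speaks of biological replicates, and the labels do not say that these were separate cultures or animals, so p-values measure the spread between these samples.

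When unfolded proteins build up in the ER, the sensors IRE1 (gene Ern1), ATF6 and PERK (gene Eif2ak3) signal to the nucleus and the translation machinery. IRE1 splices the mRNA of Xbp1, and XBP1 and ATF6 switch on chaperones, folding enzymes and genes of ER-associated degradation. PERK and other kinases phosphorylate the translation factor eIF2alpha, which lowers protein synthesis as a whole while favoring translation of ATF4, and ATF4 switches on genes of amino acid synthesis, amino acid transport and stress signaling, among them the factor CHOP (gene Ddit3).

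Ptn mRNA itself was lower in every shPTN sample. In E0771 its log2 CPM (reads scaled to all reads on genes of the sample, the scale of all cell values below) was 2.90, 2.18 and 2.28 in shCtrl and -0.63, 0.25 and 0.53 in shPTN. In E0771-LG it was 3.65, 4.51 and 3.74 in shCtrl and 1.42, 0.98 and 1.38 in shPTN. The groups did not overlap in either line, and Ptn fell by 2.40 on the log2 scale in E0771 (SE 0.37, limma adjusted p = 0.00159) and by 2.71 in E0771-LG (SE 0.28, limma adjusted p = 6.3e-05), to 18.9 and 15.3 percent of control. The knockdown did not differ between the lines (difference -0.30, SE 0.48, limma adjusted p = 0.651). In the tumors, where the antibody acts on the protein, Ptn was below the filter in 4T1, and its log2 CPM in PyMT was 2.80, 2.73 and 3.42 with C44 and 3.28, 2.95 and 4.22 with 3B10, groups that overlap.

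Stress response genes differed most in E0771-LG. There, 17 of the 35 genes (48.6 percent) passed limma at an adjusted p under 0.05, against 46.4 percent of the 10405 genes tested, so the share of stress genes was near that of all genes. By direction, 10 genes rose (28.6 percent, against 24.3 percent of all genes) and 7 fell (20.0 percent, against 22.1 percent), and the median log2 fold change was 0.18 against 0.05 over all genes. In E0771, 4 of 35 passed (11.4 percent, against 20.6 percent of 10394 genes), 1 higher (2.86 percent, against 8.89 percent) and 3 lower (8.57 percent, against 11.7 percent), with a median of -0.08 against -0.03. In both tumor experiments no stress gene passed limma at an adjusted p under 0.05, and no other gene did (0 percent of 11467 in 4T1 and 0 percent of 11361 in PyMT). The effect of the knockdown itself differed between the lines for 14 of the 35 (40.0 percent, against 34.3 percent of 10395 genes by the limma interaction term), with a more positive effect in E0771-LG for 10 (against 18.5 percent of all genes) and a more negative one for 4 (11.4 percent, against 15.8 percent).

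**Figure D1:**
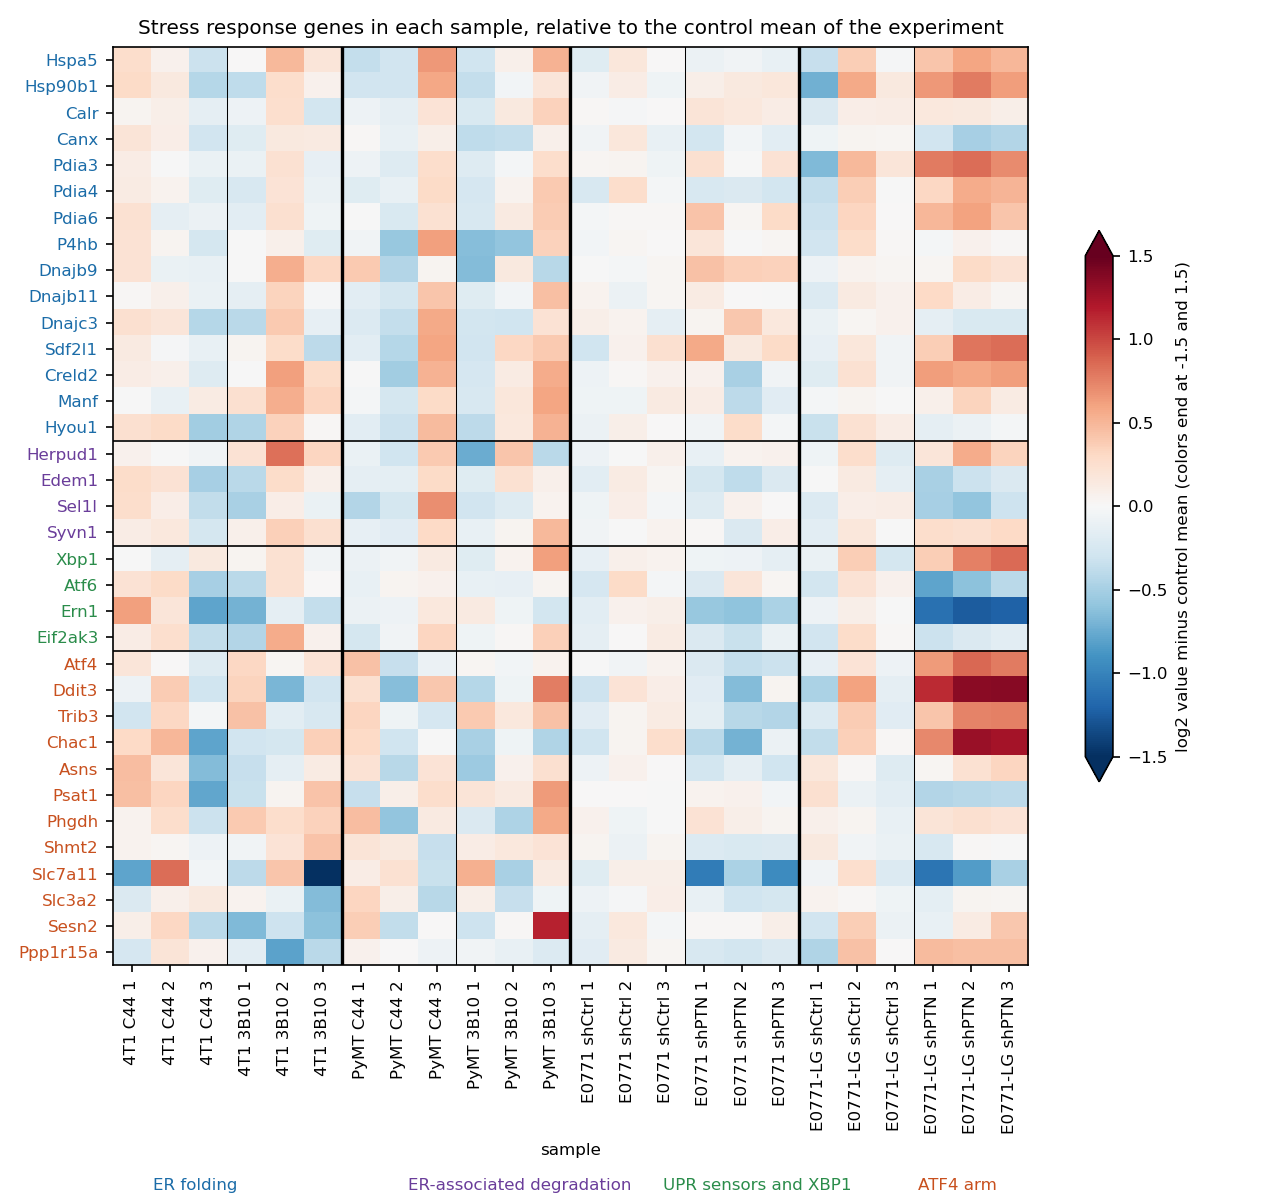
Log2 values of the 35 genes in all 24 samples, each minus the mean of the control samples of its experiment; gene names are colored by role. The E0771-LG shPTN samples share higher values of Atf4, Ddit3, Trib3 and Chac1 and lower values of Ern1 and Atf6, while tumor samples of a group vary among themselves.

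One property of the E0771-LG libraries moved with these results. Across the 10405 genes tested in that line, the log2 fold change fell by 0.218 for each doubling of gene length (Pearson r = -0.324), from a median of 0.41 in the shortest quintile of genes (up to 2607 bases of exon) to -0.23 in the longest (from 7820 bases), whereas the slope was -0.021 in E0771, -0.029 in 4T1 and -0.001 in PyMT. Each sample contributed: against the mean of the experiment, values rose with length by 0.062, 0.118 and 0.147 per doubling in shCtrl, and in shPTN the slopes were -0.082, -0.157 and -0.088. Among the stress genes, the 10 that rose had a median length of 2241.5 bases (1108 for Sdf2l1 to 4229 for Hspa5), and the 7 that fell had a median of 8173 bases (4254 for Psat1 to 13922 for Slc7a11). Whether the relation to length comes from the libraries or from the cells was not tested. An alternative chosen after seeing the data removed from each sample the part of its values that follows gene length and GC content. With it, 12 of 35 stress genes passed limma in E0771-LG (34.3 percent, against 39.8 percent of all genes). Of these, 6 were higher and 6 lower, beside 1873 and 2268 of all 10405 genes. The median over the 35 was 0.00 against -0.01. Of the 10 genes that rose, 6 kept their call (Hspa5, Pdia6, Xbp1, Atf4, Ddit3 and Chac1), and of the 7 that fell, 5 did (Canx, Atf6, Ern1, Psat1 and Slc7a11). The same step gave 11 of 35 in E0771 (31.4 percent, against 26.6 percent) and 10 of 35 for the difference between lines (28.6 percent, against 32.8 percent). Corrected values are given below beside calls that they change, but not for every gene.

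**Figure D2:**
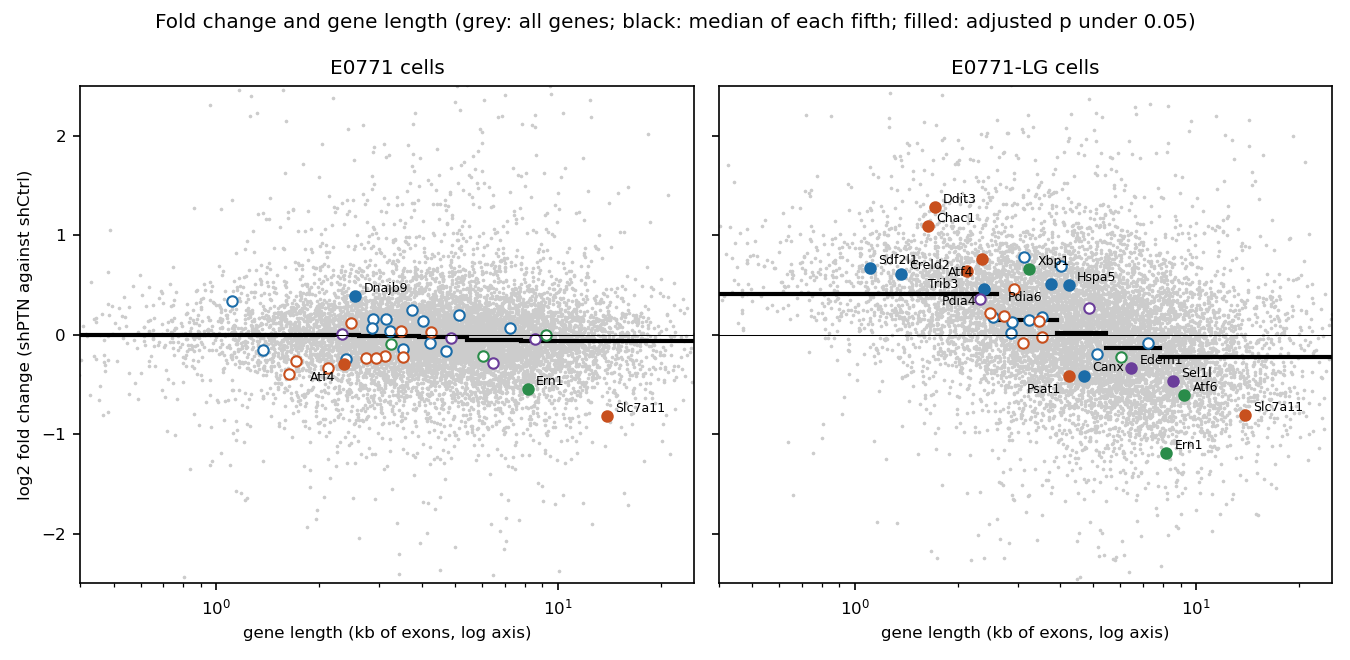
Log2 fold change of all genes tested against exon length in the 2 cell lines, with the stress genes in color and the median of each length quintile as a black bar. The bars step down from short to long genes in E0771-LG and lie near 0 in E0771.

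Some promoters of these genes hold a sequence motif tied to their arm, and examples are shown for genes that moved in different directions. Promoter sequences of RefSeq (build GRCm38.p6, 250 bases before to 50 after the start of the transcript) were matched by symbol for 32 of the 35 genes. Manf, Hyou1 and Atf6 had no entry. The ER stress response element (ERSE, the letters CCAAT, any 9 bases, then CCACG), read by ATF6 with the factor NF-Y, was searched on both strands. It was in 8 of 20 ER genes with an entry (40.0 percent), in 0 of 12 ATF4 arm genes, in 37 of all 27025 genes (0.137 percent), and in 0.202 percent of the 9390 genes with an entry that are in the expression table. The 8 were Hspa5, Hsp90b1 (at 2 places), Calr, Canx, Pdia6, Dnajc3, Creld2 and Syvn1. Shown with the match in capitals, 5′ to 3′ along the gene, are genes of each kind. There are 3 that rose in E0771-LG, Hspa5 (chr2:34772000-34772068, plus strand), Pdia6 (chr12:17266466-17266534, plus strand) and Creld2 (chr15:88819495-88819563, plus strand, match on the opposite strand), 1 that fell, Canx (chr11:50325775-50325843, minus strand), and 2 that did not pass, Dnajc3 (chr14:118937802-118937870, plus strand) and Hsp90b1 (chr10:86705508-86705681, minus strand, its second match on the opposite strand).
Hspa5: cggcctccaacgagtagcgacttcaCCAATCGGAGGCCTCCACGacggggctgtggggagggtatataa
Pdia6: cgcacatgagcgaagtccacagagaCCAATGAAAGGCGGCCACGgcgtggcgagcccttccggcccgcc
Creld2: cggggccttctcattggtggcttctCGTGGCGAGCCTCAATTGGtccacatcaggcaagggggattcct
Canx: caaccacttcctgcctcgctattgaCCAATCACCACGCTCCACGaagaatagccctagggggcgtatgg
Dnajc3: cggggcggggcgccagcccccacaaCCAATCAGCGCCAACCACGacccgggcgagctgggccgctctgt
Hsp90b1: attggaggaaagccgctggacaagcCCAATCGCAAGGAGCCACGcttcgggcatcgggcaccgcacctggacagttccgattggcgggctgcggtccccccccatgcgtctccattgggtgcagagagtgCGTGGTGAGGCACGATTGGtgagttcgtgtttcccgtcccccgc
Of the 10 genes that rose in E0771-LG, 3 held the element, as did 1 of the 6 with an entry that fell and 4 of 16 that did not pass. A match describes letters and not a site in use.

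The C/EBP-ATF response element (CARE, the letters TGATGNAA), bound by ATF4, was in 4 of 12 ATF4 arm genes (33.3 percent), 1 of 20 ER genes (5.0 percent) and 1219 of all 27025 genes (4.51 percent; 2.77 percent of those in the expression table), counting both strands. The 5 genes were Chac1, Asns, Slc7a11 (at 2 places), Trib3 (after the start of its transcript) and Herpud1. Shown, again with matches in capitals, are Chac1 (chr2:119351024-119351081, plus strand, opposite strand), which rose in E0771-LG, Slc7a11 (chr3:50443628-50443704, minus strand, 1 match on each strand), which fell, and Asns (chr6:7693210-7693257, minus strand), which did not pass.
Chac1: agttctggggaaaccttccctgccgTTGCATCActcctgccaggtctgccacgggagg
Slc7a11: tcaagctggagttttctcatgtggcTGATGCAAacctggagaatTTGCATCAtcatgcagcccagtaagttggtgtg
Asns: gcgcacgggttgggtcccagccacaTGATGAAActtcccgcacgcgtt
The unfolded protein response element (UPRE, the letters TGACGTGG), bound by XBP1 and ATF6, was in none of the 32 genes and in 193 of 27025 (0.714 percent; 1.05 percent of those in the expression table). The letters not being in this window says nothing of the factors. Genes with the same element thus went in different directions in E0771-LG.

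Per kilobase of exon, the most abundant stress genes of the shCtrl cells were ER folding genes and the serine synthesis enzyme Phgdh. In E0771 shCtrl the mean level was 8.47 log2 CPM per kb for the calcium-binding chaperone Calr (SD 0.02) and 8.46 for Phgdh (SD 0.06), which do not differ beyond their spread, and the lowest was 1.16 for the cystine transporter Slc7a11 (SD 0.15). In E0771-LG shCtrl, Phgdh (8.60, SD 0.10), the disulfide isomerase P4hb (8.48, SD 0.28) and Calr (8.33, SD 0.19) were highest, and Slc7a11 (2.03, SD 0.23) was lowest. P4hb overlapped with Phgdh and with Calr, whereas every Phgdh value lay above every Calr value. Tumors ordered the same genes differently: in PyMT C44 tumors P4hb led (9.25, SD 0.59), Xbp1 was at rank 2 (8.93, SD 0.12), Phgdh at rank 19 (5.33, SD 0.54) and Slc7a11 last (-3.02, SD 0.29). P4hb and Xbp1 did not differ there beyond the spread of P4hb. Xbp1 was at rank 27 in E0771 shCtrl, with 4.17 log2 CPM per kb (SD 0.11). The 4T1 values are on a scale that already accounts for length. In C44 tumors P4hb (10.23, SD 0.24), Hspa5 (10.14, SD 0.30), Calr (10.12, SD 0.11), Hsp90b1 (10.12, SD 0.38) and Pdia3 (10.03, SD 0.11) were highest there. The glutathione-degrading enzyme Chac1 (2.94, SD 0.70) was lowest. All the highest genes named lay within the spread of P4hb, and Sesn2 (3.01, SD 0.36) within that of Chac1.

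Among the 15 ER chaperones and folding enzymes, 5 rose and 1 fell in E0771-LG, beside 24.3 and 22.1 percent of all genes, and 12 had a fold change above 0, as did 53.8 percent of all genes. After the correction for length and GC, 2 of the 15 rose and 1 fell by limma, beside 1873 and 2268 of all 10405 genes. Hspa5 (BiP), the main ER chaperone and the brake on all 3 sensors, was at 9.74, 10.45 and 10.07 log2 CPM in shCtrl and 10.50, 10.68 and 10.58 in shPTN. Every shPTN value was above every control value, though shCtrl 2 lay just below shPTN 1. Hspa5 rose by 0.50 (SE 0.16, 1.42 times, limma adjusted p = 0.0313), and by 0.51 after the correction for length and GC (limma adjusted p = 0.023). Creld2, an ER protein that helps folding, was at 5.65, 6.06 and 5.78 in shCtrl and 6.46, 6.41 and 6.46 in shPTN, and Sdf2l1, a partner of ER J-proteins, at 4.76, 5.04 and 4.83 against 5.25, 5.68 and 5.71. Both sets of groups were separate. Sdf2l1 rose by 0.67 (SE 0.15, limma adjusted p = 0.00417) and Creld2 by 0.61 (SE 0.12, limma adjusted p = 0.00192), but both genes are short and neither passed after the correction (0.11, limma adjusted p = 0.531, and 0.12, limma adjusted p = 0.399).

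Of the disulfide isomerases in the same list, Pdia6 and Pdia4 rose, and Pdia3 and P4hb did not pass. Pdia6 was at 8.32, 8.97 and 8.65 in shCtrl and 9.15, 9.25 and 9.06 in shPTN of E0771-LG, separate groups, and rose by 0.51 (SE 0.15, limma adjusted p = 0.018; corrected 0.44, limma adjusted p = 0.0228). Pdia4 rose by 0.46 (SE 0.17, limma adjusted p = 0.0449), though shPTN 1 (8.23) was below shCtrl 2 (8.28), and its corrected value was 0.22 (limma adjusted p = 0.275). The glycoprotein isomerase Pdia3 was at 8.34, 9.48 and 9.18 against 9.78, 9.84 and 9.71, and the chaperone Hsp90b1 (GRP94) at 8.44, 9.73 and 9.30 against 9.81, 9.94 and 9.79. Their groups did not overlap, but shCtrl 1 lay far below the other controls, and neither passed (Pdia3 0.78, SE 0.29, limma adjusted p = 0.0688; Hsp90b1 0.69, SE 0.32, limma adjusted p = 0.132). The gene that fell was Canx, the membrane-bound lectin chaperone calnexin, at 10.01, 10.12 and 10.11 in shCtrl and 9.79, 9.58 and 9.64 in shPTN. Its groups were separate, and it fell by 0.41 (SE 0.09, limma adjusted p = 0.00307) and by 0.38 after the correction (limma adjusted p = 0.00873). Its soluble relative Calr had a fold change of 0.13 (limma adjusted p = 0.299). The other chaperones, among them P4hb (0.02), the J-proteins Dnajb9 (0.18), Dnajb11 (0.15) and Dnajc3 (-0.20), the secreted factor Manf (0.18) and the large chaperone Hyou1 (-0.09), did not pass. With the correction the sign turned for Calr (-0.06), P4hb (-0.22), Dnajb9 (-0.06) and Hyou1 (0.05), which did not pass then either.

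Several of these E0771-LG calls lay near the threshold and were lost with 1 library fewer, while the log2 fold changes kept their sign (0.33 to 0.68 for Hspa5, 0.29 to 0.65 for Pdia4 and 0.35 to 0.67 for Pdia6). Hspa5 did not pass limma without shCtrl 3 (adjusted p = 0.0978), shPTN 1 (0.0545), shPTN 2 (0.106) or shPTN 3 (0.075). Pdia4 did not pass without shCtrl 1 (0.063), shCtrl 3 (0.111), shPTN 1 (0.0534), shPTN 2 (0.141) or shPTN 3 (0.119), and Pdia6 without shCtrl 3 (0.0518) or shPTN 2 (0.0761). With no filter on low values, Hspa5 (limma adjusted p = 0.0556) and Pdia4 (0.0804) did not pass either. Pdia3 and Hsp90b1 passed limma without shCtrl 1 (adjusted p = 0.00193 and 0.0368) and without shCtrl 2 (0.0193 and 0.0305), and Dnajc3 (0.0399) and Hyou1 (0.0183) passed, both lower, without shCtrl 1. Hsp90b1 and Pdia3 also passed limma without the robust option (adjusted p = 0.048 and 0.0197) and in 1 fit of the 12 cell samples (0.0303 and 0.00976). Canx, Creld2 and Sdf2l1 passed whichever library was left out. Counted over all 23 ER genes, 11 passed in E0771-LG, beside 46.4 percent of all genes. With the correction for length and GC 6 passed, beside 39.8 percent of all genes. Without shPTN 2 the count was 5, a fit whose share of all genes is not given here.

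In E0771, 1 of 15 folding genes passed, beside 20.6 percent of all genes. This was Dnajb9 (ERdj4), a J-protein that hands misfolded proteins to degradation and restrains IRE1, at 5.20, 5.17 and 5.23 in shCtrl and 5.64, 5.55 and 5.55 in shPTN. The groups were tight and separate, and Dnajb9 rose by 0.38 (SE 0.10, 1.31 times, limma adjusted p = 0.0177). It did not pass without shCtrl 2 (0.0538), shCtrl 3 (0.0636) or shPTN 3 (0.063). Hspa5 was at 10.16, 10.50 and 10.35 in shCtrl and 10.26, 10.29 and 10.22 in shPTN, so all shPTN values lay inside the control range (log2 fold change -0.08, SE 0.10, limma adjusted p = 0.584). The other 13 ranged from -0.24 (Pdia4) to 0.34 (Sdf2l1). With the correction for length and GC, 4 of 15 passed limma, all higher, beside 1298 of all 10394 genes higher: Dnajb9 (0.50, adjusted p = 0.00195), Hsp90b1 (0.24, 0.0361), Pdia6 (0.26, 0.0371) and Dnajc3 (0.31, 0.039). Leaving out shPTN 2 let Pdia6 pass uncorrected (limma adjusted p = 0.00964), and leaving out shCtrl 1 let Pdia4 pass, lower (limma adjusted p = 0.0435).

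The effect of the knockdown on folding genes differed between the lines for 4 of 15, beside 34.3 percent of all genes. It was more positive in E0771-LG for Creld2 (difference 0.77, SE 0.19, limma interaction adjusted p = 0.00649), Pdia4 (0.71, SE 0.22, limma adjusted p = 0.0247) and Hspa5 (0.58, SE 0.20, limma adjusted p = 0.034), and more negative for Dnajc3 (-0.40, SE 0.15, limma adjusted p = 0.0452). After the correction for length and GC, Hspa5 (0.52, limma adjusted p = 0.0445) and Dnajc3 (-0.41, limma adjusted p = 0.0379) kept their calls, Creld2 (0.30, limma adjusted p = 0.103) and Pdia4 (0.43, limma adjusted p = 0.164) did not, and Dnajb9 gained one (-0.54, limma adjusted p = 0.0108). Canx (-0.25, limma adjusted p = 0.161) did not differ between lines although it passed in E0771-LG and not in E0771.

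**Figure D3:**
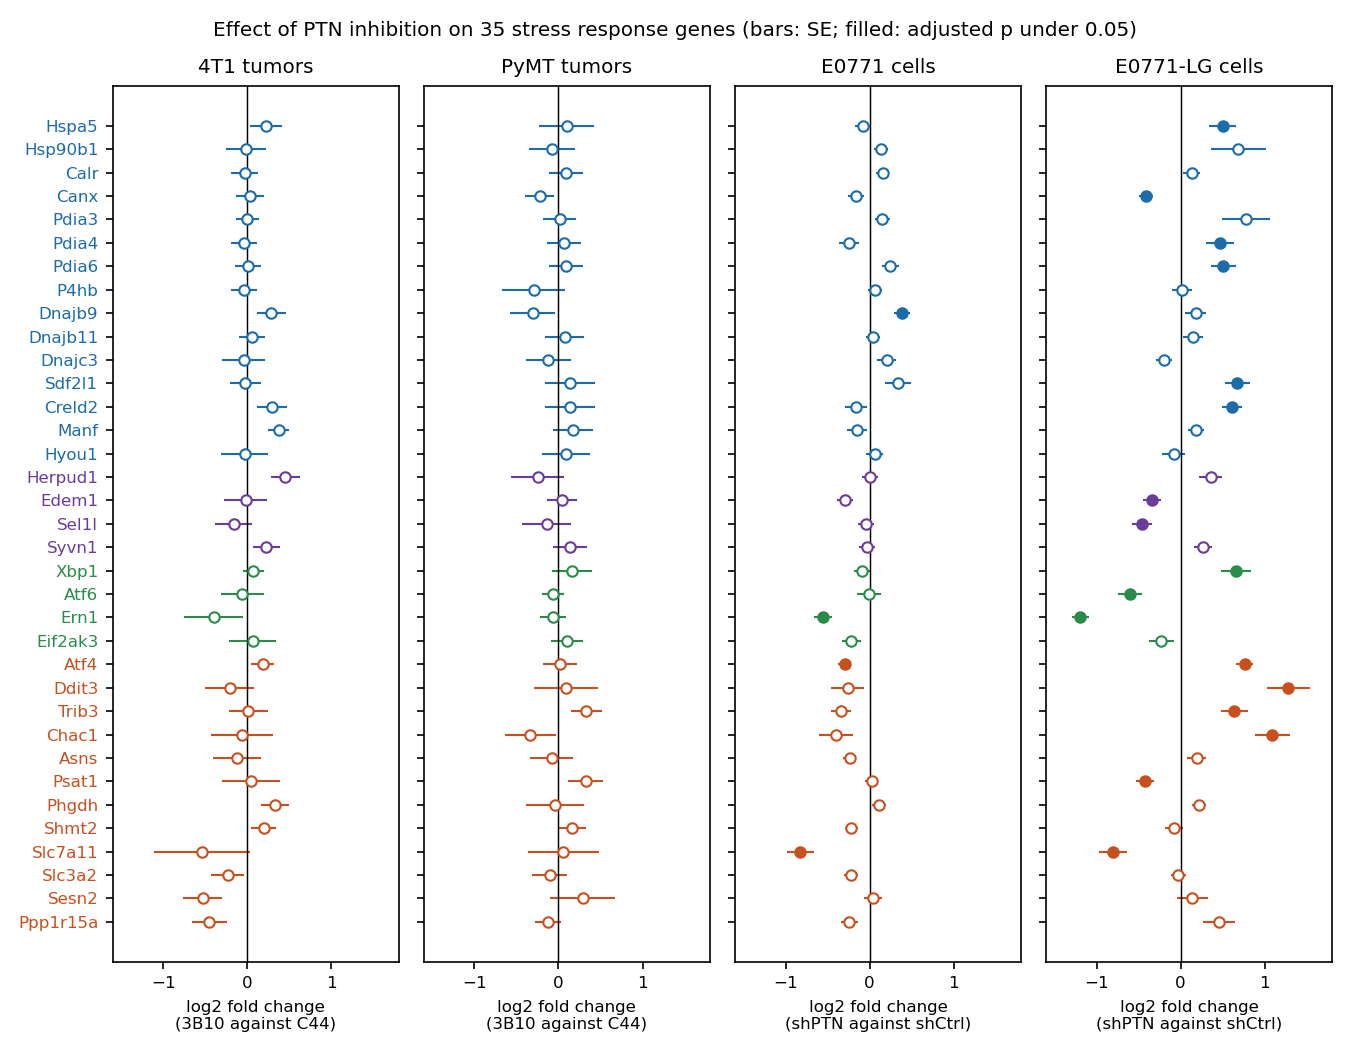
Log2 fold change of the 35 genes in each experiment with its standard error, filled where limma gave an adjusted p under 0.05. Effects are largest in E0771-LG, in both directions, and standard errors are wider in the tumors for most genes, with exceptions such as Hsp90b1 and Pdia3.

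Of the 4 genes of ER-associated degradation, which move misfolded proteins out of the ER for destruction, 2 fell in E0771-LG and 0 rose, beside 22.1 percent of all genes lower and 24.3 percent higher. Sel1l, the scaffold of the ubiquitin ligase, was at 6.58, 6.88 and 6.90 in shCtrl and 6.29, 6.20 and 6.48 in shPTN, and Edem1, which marks misfolded glycoproteins, at 7.62, 7.76 and 7.49 against 7.14, 7.31 and 7.41. Both sets of groups were separate by small margins. Sel1l fell by 0.46 (SE 0.12, limma adjusted p = 0.00949) and Edem1 by 0.34 (SE 0.11, limma adjusted p = 0.0245), and neither passed after the correction for length and GC (-0.24, limma adjusted p = 0.0827, and -0.18, limma adjusted p = 0.206). Sel1l did not pass limma without shPTN 2 (adjusted p = 0.0554), nor Edem1 without shCtrl 2 (0.0704), shPTN 1 (0.0968) or shPTN 2 (0.0717). The membrane protein Herpud1 (0.36, limma adjusted p = 0.0527) and the ubiquitin ligase Syvn1 (0.27, limma adjusted p = 0.0572) lay just outside the threshold, and both passed without shCtrl 2 (limma adjusted p = 0.00722 and 0.0199), Herpud1 also without shPTN 1 (0.0387). In 1 fit of the 12 cell samples both passed as well (limma adjusted p = 0.0242 and 0.0383). Neither passed after the correction (Herpud1 0.06, limma adjusted p = 0.736, and Syvn1 0.20, limma adjusted p = 0.0996). In E0771 none of the 4 passed limma at an adjusted p under 0.05, and 1, Edem1, had an unadjusted p under 0.05 (-0.29, SE 0.09, limma adjusted p = 0.0523), with separate groups (7.48, 7.76 and 7.67 against 7.37, 7.25 and 7.42). It passed without shCtrl 1 (limma adjusted p = 0.0275). The effect on Sel1l differed between the lines (-0.42, SE 0.16, limma adjusted p = 0.0486), but not after the correction (-0.25, limma adjusted p = 0.12), with no filter (0.057) or without the robust option (0.0507), and that on Edem1 did not (-0.05, limma adjusted p = 0.809).

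Of the 3 sensors, Ern1 and Atf6 fell in E0771-LG and Eif2ak3 did not pass, and the factor Xbp1 rose. Ern1, the sensor IRE1 itself, was at 6.36, 6.52 and 6.44 in shCtrl and 5.32, 5.19 and 5.23 in shPTN, so the gap between groups was several times the spread within them. Ern1 fell by 1.19 (SE 0.10, to 43.7 percent of control, limma adjusted p = 3.22e-05), the smallest adjusted p of the 35 genes, and by 1.00 after the correction for length and GC (limma adjusted p = 4.96e-05). It was also lower in E0771, at 5.62, 5.84 and 5.87 in shCtrl and 5.20, 5.18 and 5.30 in shPTN. These groups were separate too, and Ern1 fell by 0.55 (SE 0.11, to 68.3 percent of control, limma adjusted p = 0.00492; corrected -0.55, limma adjusted p = 0.00138). Control cells of E0771-LG had more Ern1 than those of E0771, and shPTN cells of the lines were at nearly the same level. The fall was larger in E0771-LG (difference -0.64, SE 0.14, limma adjusted p = 0.0033; corrected -0.45, limma adjusted p = 0.015), and every call on Ern1 held whichever library was left out.

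Xbp1, the target of IRE1, went the other way. In E0771-LG it was at 6.39, 6.87 and 6.23 in shCtrl and 6.87, 7.25 and 7.34 in shPTN, with shCtrl 2 next to shPTN 1 at the border between the groups. It rose by 0.66 (SE 0.18, 1.58 times, limma adjusted p = 0.0148) and by 0.49 after the correction (limma adjusted p = 0.0231). It did not pass without shCtrl 1 (limma adjusted p = 0.0663), shPTN 2 (0.0618) or shPTN 3 (0.0558). In E0771, Xbp1 was at 5.74, 5.94 and 5.91 against 5.80, 5.79 and 5.73, overlapping groups (-0.09, SE 0.10, limma adjusted p = 0.533), and the effects differed (0.75, SE 0.21, limma adjusted p = 0.0136; corrected 0.62, limma adjusted p = 0.0172). The values are sums over the gene, so spliced and unspliced Xbp1 mRNA are not told apart. Atf6 fell in E0771-LG, from 7.09, 7.59 and 7.44 in shCtrl to 6.58, 6.76 and 6.96 in shPTN, with separate groups (-0.60, SE 0.14, to 65.8 percent, limma adjusted p = 0.00578; corrected -0.36, limma adjusted p = 0.0378). In E0771 the groups overlapped fully (7.19, 7.72 and 7.41 against 7.22, 7.62 and 7.47; 0.00, limma adjusted p = 0.987), and the difference between the lines lay just outside the threshold (-0.60, SE 0.22, limma adjusted p = 0.0505), passing without E0771 shCtrl 2 (0.0191), E0771 shPTN 1 (0.0267), E0771-LG shCtrl 1 (0.0147) or E0771-LG shPTN 3 (0.0393). It also passed limma with median-of-ratios scaling (adjusted p = 0.0297), without the robust option (0.0495) and with a pseudocount of 1 (0.0489) or 0.1 (0.05), and with voom weights (0.05). The values given as 0.05 were under the threshold before rounding. Eif2ak3, which encodes PERK, did not pass in either line (-0.22, limma adjusted p = 0.199, and -0.23, limma adjusted p = 0.226), and it passed in E0771-LG without shCtrl 1 (limma adjusted p = 0.0291).

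The ATF4 arm held the largest rises in E0771-LG, with 4 of 12 genes higher and 2 lower, beside 24.3 and 22.1 percent of all genes. With the correction for length and GC, 3 were higher and 3 lower, beside 1873 and 2268 of all 10405 genes. Atf4 was at 8.83, 9.15 and 8.87 in shCtrl and 9.59, 9.82 and 9.73 in shPTN. The groups were well apart, and Atf4 rose by 0.76 (SE 0.11, 1.69 times, limma adjusted p = 0.000294), and by 0.42 after the correction for length and GC (limma adjusted p = 0.00386). Its target Ddit3, the factor CHOP linked to cell death in lasting stress, was at 4.21, 5.29 and 4.56 in shCtrl and 5.81, 6.05 and 6.05 in shPTN, so the shPTN samples were close together above spread-out controls. Ddit3 rose by 1.28 (SE 0.25, 2.43 times, limma adjusted p = 0.00453; corrected 0.94, limma adjusted p = 0.0163). Chac1, which breaks down glutathione, was at 4.34, 5.08 and 4.73 against 5.44, 6.01 and 5.97, and rose by 1.09 (SE 0.21, 2.13 times, limma adjusted p = 0.00275; corrected 0.61, limma adjusted p = 0.0137). Trib3, a pseudokinase that dampens ATF4 signaling, was at 6.39, 6.97 and 6.42 against 7.01, 7.34 and 7.35, groups that nearly touch, and rose by 0.64 (SE 0.16, limma adjusted p = 0.0107). Trib3 did not pass after the correction (0.22, limma adjusted p = 0.178) or without shPTN 2 (0.0512).

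Other ATF4 targets did not follow. Slc7a11, which imports cystine for glutathione synthesis and whose promoter held 2 copies of the element shown above, was at 5.77, 6.08 and 5.62 in shCtrl and 4.74, 4.99 and 5.34 in shPTN of E0771-LG, with separate groups. It fell by 0.81 (SE 0.17, to 57.2 percent of control, limma adjusted p = 0.00319; corrected -0.58, limma adjusted p = 0.0155). Psat1, an enzyme of serine synthesis, was at 9.85, 9.52 and 9.45 against 9.17, 9.19 and 9.21, the shPTN samples being nearly equal and all lower, and fell by 0.42 (SE 0.11, limma adjusted p = 0.00849; corrected -0.43, limma adjusted p = 0.0104). The other 6 did not pass: the eIF2alpha phosphatase subunit Ppp1r15a (0.46, limma adjusted p = 0.0762), the serine synthesis enzyme Phgdh (0.22, limma adjusted p = 0.0509), asparagine synthetase Asns (0.19, limma adjusted p = 0.185), the stress-induced Sesn2 (0.14), the transporter subunit Slc3a2 (-0.03) and the mitochondrial serine enzyme Shmt2 (-0.08). Ppp1r15a passed without shCtrl 2 (limma adjusted p = 0.00147) and in 1 fit of the 12 cell samples (0.0283). Phgdh passed limma with no filter (adjusted p = 0.0492), a stricter filter (0.0496), voom weights (0.0491) and 1 fit of the 12 cell samples (0.0387). Phgdh (limma adjusted p = 0.0114) and Asns (0.035) passed without shCtrl 1, and Shmt2 after the correction, lower (-0.33, limma adjusted p = 0.0329). The corrected values of Phgdh (-0.13, limma adjusted p = 0.279), Asns (0.00, 0.994), Ppp1r15a (0.205, 0.31) and Sesn2 (-0.09, 0.636) did not pass, and the sign of Phgdh and Sesn2 turned.

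**Figure D4:**
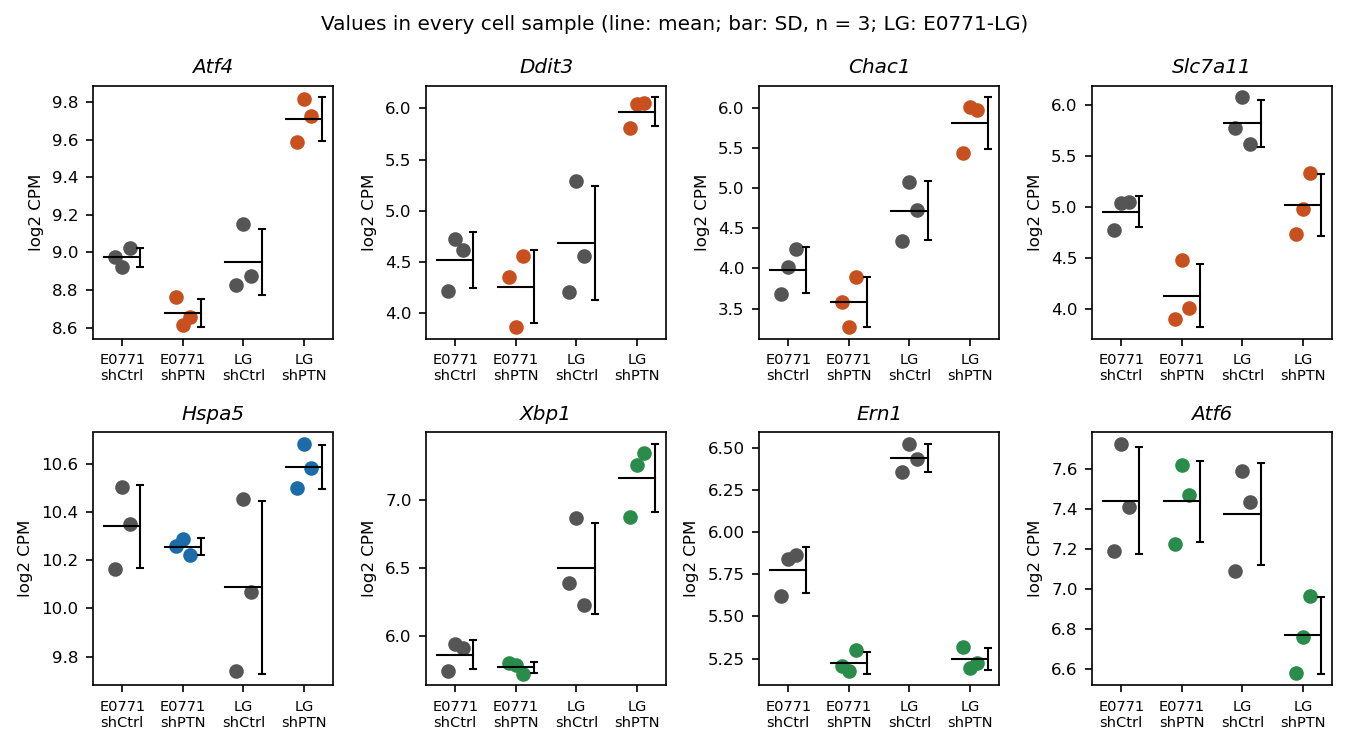
Log2 CPM of 8 genes in each sample of the cell lines, with the mean and standard deviation of each group. Atf4, Ddit3, Chac1, Hspa5 and Xbp1 are higher with shPTN in E0771-LG and not in E0771, Ern1 and Slc7a11 are lower with shPTN in both lines, and Atf6 is lower in E0771-LG.

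In E0771, 2 of 12 ATF4 arm genes fell and 0 rose by limma, beside 11.7 percent of all genes lower and 8.89 percent higher. At an unadjusted p under 0.05 limma gave 7 of 12, against 3541 of all 10394 genes, and the median log2 fold change was -0.24 against -0.03 over all genes. Slc7a11 was at 4.78, 5.05 and 5.05 in shCtrl and 3.91, 4.49 and 4.01 in shPTN. Its groups were separate, and it fell by 0.82 (SE 0.16, to 56.6 percent, limma adjusted p = 0.00601; corrected -0.69, limma adjusted p = 0.00328), a change like that in E0771-LG (difference 0.02, SE 0.25, limma adjusted p = 0.965). Atf4 was at 8.97, 8.93 and 9.03 against 8.76, 8.62 and 8.66, with all shPTN samples below all controls, and fell by 0.30 (SE 0.08, to 81.4 percent, limma adjusted p = 0.023; corrected -0.33, limma adjusted p = 0.00588). Atf4 did not pass limma without shCtrl 1 (adjusted p = 0.0584), shCtrl 2 (0.0529), shCtrl 3 (0.117) or shPTN 3 (0.107). Ddit3 was at 4.22, 4.73 and 4.62 against 4.35, 3.87 and 4.56, and Chac1 at 3.68, 4.02 and 4.24 against 3.58, 3.27 and 3.90. Both sets of groups overlapped, and neither gene passed (-0.26, limma adjusted p = 0.38, and -0.40, limma adjusted p = 0.186).

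The remaining genes of the arm in E0771 ranged from -0.34 for Trib3 (limma adjusted p = 0.069) to 0.12 for Phgdh. Trib3 passed limma without shCtrl 1 (adjusted p = 0.0453) or shPTN 1 (0.0251), Ppp1r15a without shCtrl 1 (0.0489), Slc3a2 without shPTN 1 (0.0391) and Asns without shPTN 2 (0.0258), all lower. With the correction for length and GC, 6 of 12 passed limma, all lower, beside 1465 of all 10394 genes lower: Slc7a11, Atf4, Trib3 (-0.38, limma adjusted p = 0.0141), Slc3a2 (-0.26, limma adjusted p = 0.0193), Shmt2 (-0.27, limma adjusted p = 0.0209) and Ppp1r15a (-0.28, limma adjusted p = 0.0465). The count of 2 became 1 without shCtrl 2, shCtrl 3 or shPTN 3 and 4 without shPTN 1. Over the 23 ER genes of E0771 the count was 2 (Dnajb9 and Ern1), beside 20.6 percent of all genes. It became 1 without shCtrl 2, shCtrl 3 or shPTN 3, and 4 without shCtrl 1. With the correction it became 5, beside 26.6 percent of all genes.

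In the ATF4 arm the limma interaction term passed for 7 of 12 genes, beside 34.3 percent of all genes. It passed for 5 of 12 after the correction for length and GC, beside 32.8 percent. Atf4 fell in E0771 and rose in E0771-LG, the only one of the 35 genes called in opposite directions (difference 1.06, SE 0.14, limma adjusted p = 9.06e-05; corrected 0.75, limma adjusted p = 0.000181). The effect was also more positive in E0771-LG for Ddit3 (1.54, SE 0.35, limma adjusted p = 0.00555; corrected 1.13, limma adjusted p = 0.0189), Chac1 (1.49, SE 0.31, limma adjusted p = 0.00287; corrected 1.03, limma adjusted p = 0.0059) and Trib3 (0.98, SE 0.21, limma adjusted p = 0.00359; corrected 0.60, limma adjusted p = 0.0114). These 4 held whichever library was left out. Ppp1r15a (0.70, SE 0.23, limma adjusted p = 0.0292) and Asns (0.43, SE 0.15, limma adjusted p = 0.0351) differed as well, but not after the correction (0.48, limma adjusted p = 0.0693, and 0.20, limma adjusted p = 0.327). Asns did not pass limma with median-of-ratios scaling either (0.38, adjusted p = 0.0693). Psat1 was the 1 gene of the arm with a more negative effect in E0771-LG (-0.44, SE 0.13, limma adjusted p = 0.0198; corrected -0.49, limma adjusted p = 0.014). Called in the same direction in both lines were 2 of the 35, Ern1 and Slc7a11 (5.71 percent, against 6.79 percent of 10223 genes tested in both).

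Of the 14 differences between lines, 8 passed whichever of the 12 libraries was left out, namely Creld2, Xbp1, Ern1, Atf4, Ddit3, Trib3, Chac1 and Psat1. Of these, Creld2 did not pass with the correction for length and GC, as given above. The count of 14 became 9 without E0771 shCtrl 3, 8 without E0771 shPTN 3, 9 without E0771-LG shCtrl 3 and 8 without E0771-LG shPTN 2. By limma, Hspa5 did not pass without E0771 shCtrl 2 (adjusted p = 0.0804), shCtrl 3 (0.0677), shPTN 1 (0.0516), shPTN 2 (0.0564) or shPTN 3 (0.0697), or E0771-LG shCtrl 1 (0.0532), shCtrl 3 (0.0652), shPTN 2 (0.0846) or shPTN 3 (0.0617). Pdia4 failed limma without E0771 shCtrl 2 (0.0572) or shPTN 3 (0.0524) or E0771-LG shPTN 2 (0.0638) or shPTN 3 (0.0538). Without E0771-LG shCtrl 3 its limma adjusted p rounded to 0.05, at the threshold. By limma, Dnajc3 did not pass without E0771 shCtrl 2 (adjusted p = 0.0552), shCtrl 3 (0.124), shPTN 2 (0.114) or shPTN 3 (0.0678), or E0771-LG shCtrl 2 (0.0675), shCtrl 3 (0.0993), shPTN 2 (0.093) or shPTN 3 (0.0869). Sel1l failed limma without E0771 shCtrl 1 (0.0991), shCtrl 3 (0.0999), shPTN 2 (0.106) or shPTN 3 (0.102), or E0771-LG shCtrl 2 (0.0869), shCtrl 3 (0.116), shPTN 1 (0.0817) or shPTN 2 (0.124). By limma, Asns did not pass without E0771 shCtrl 2 (adjusted p = 0.0721), shCtrl 3 (0.0719), shPTN 1 (0.0543) or shPTN 3 (0.083), or E0771-LG shCtrl 3 (0.0962), shPTN 2 (0.0803) or shPTN 3 (0.0949). Ppp1r15a failed limma without E0771 shCtrl 2 (0.0661), shCtrl 3 (0.0635), shPTN 2 (0.0592) or shPTN 3 (0.0519), or E0771-LG shCtrl 3 (0.053), shPTN 2 (0.0585) or shPTN 3 (0.0543). Hsp90b1 (limma adjusted p = 0.0165), Pdia3 (0.0133), Herpud1 (0.0257) and Syvn1 (0.0436) passed without E0771-LG shCtrl 2, and Manf (0.0234) without E0771 shPTN 1.

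**Figure D5:**
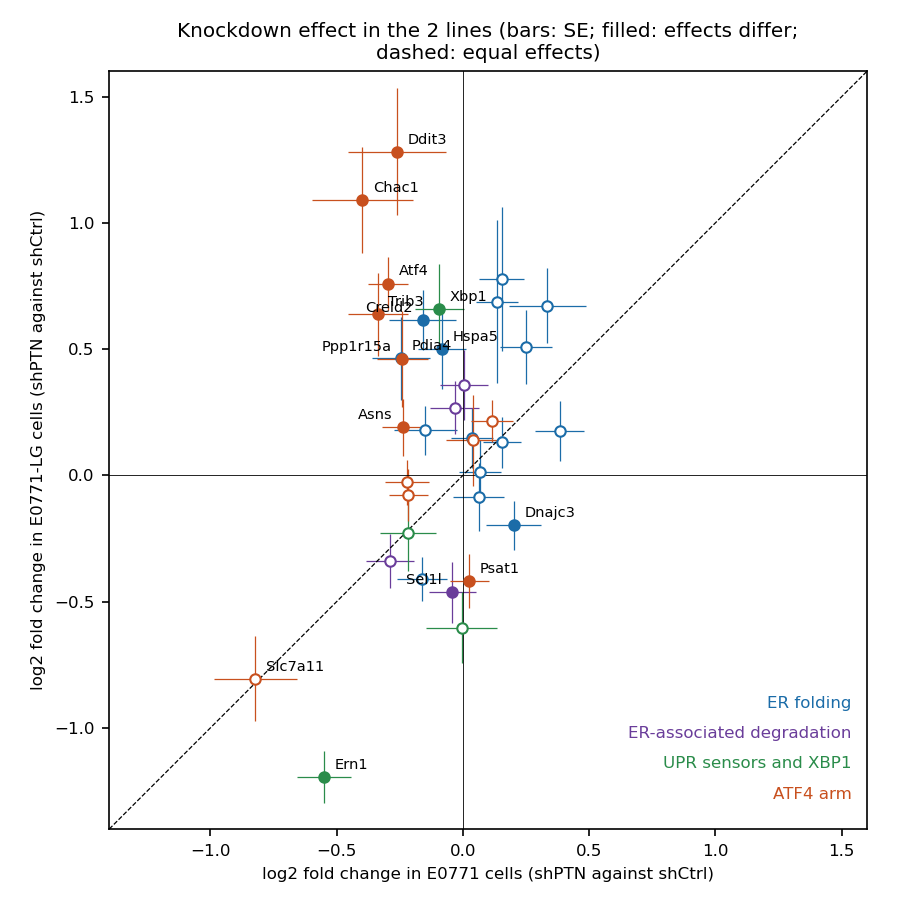
Log2 fold change with standard error in E0771 against that in E0771-LG for the 35 genes, filled where the effects differed between the lines. Genes of the ATF4 arm other than Psat1 lie on or above the line of equal effects, Ern1 lies below it, and Slc7a11 lies close to it.

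Other genes of the same pathways varied in direction too. Of 35 other ER folding and quality control genes tested in E0771-LG, 11 rose and 12 fell, beside 24.3 and 22.1 percent of all genes. Erp29, an ER escort protein, rose by 1.02 (SE 0.11, limma adjusted p = 7.24e-05), the proline isomerase Fkbp2 by 1.00 (SE 0.15, limma adjusted p = 0.000446) and the selenoprotein Selenok by 0.84 (SE 0.13, limma adjusted p = 0.000529). The chaperone Hspa13 fell by 0.83 (limma adjusted p = 0.000148), the vesicle coat subunit Sec24d by 0.66 (limma adjusted p = 0.000508) and the translocon subunit Sec61a1 by 0.60 (limma adjusted p = 0.000476). After the correction for length and GC, 4 of the 35 rose and 8 fell by limma, beside 1873 and 2268 of all 10405 genes. The 6 genes just named were among those called. Of 35 tested in E0771, 0 rose and 4 fell, beside 8.89 and 11.7 percent of all genes, among them Sil1 (-0.66, limma adjusted p = 0.00477), the exchange factor of BiP, Sec24d (-0.49, limma adjusted p = 0.00265) and Hspa13 (-0.38, limma adjusted p = 0.0128). Hspa13 did not pass limma in E0771 without shCtrl 2 (adjusted p = 0.0581), shCtrl 3 (0.059) or shPTN 3 (0.0671).

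Of 32 other ATF4 and amino acid response genes tested in E0771-LG, 10 rose and 7 fell, beside 24.3 and 22.1 percent of all genes. With the correction 8 rose and 7 fell, beside 1873 and 2268 of all 10405 genes. Nupr1, a stress-induced chromatin protein, was at 3.46, 5.13 and 4.28 log2 CPM in shCtrl and 6.09, 6.34 and 6.10 in shPTN, all higher, and rose by 1.88 (SE 0.41, limma adjusted p = 0.0117). The factor Atf5 rose by 1.04 (SE 0.14, limma adjusted p = 0.000236). Cystathionine lyase Cth had 2, 19 and 10 reads in shCtrl and 29, 28 and 43 in shPTN, and entered the test only through the shPTN samples. Its value of 2.03 (SE 0.70, limma adjusted p = 0.0351) is bound to that filter. The 3 largest falls were those of the transporters Slc7a1 (by 0.85, limma adjusted p = 9.74e-05), Slc7a5 (by 0.77, limma adjusted p = 0.000151) and Slc38a2 (by 0.62, limma adjusted p = 0.000731). Cth did not pass after the correction (1.86, limma adjusted p = 0.0512) or without shCtrl 1 (0.0654), shCtrl 3 (0.0518), shPTN 1 (0.0596), shPTN 2 (0.0906) or shPTN 3 (0.134), nor with no filter (0.0655) or in 1 fit of the 12 cell samples (0.0864), nor Nupr1 without shCtrl 3 (0.0522).

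In E0771, 3 of 31 such genes rose and 8 fell, beside 8.89 and 11.7 percent of all genes. Atf3, a factor induced by ATF4, was at 4.95, 5.62 and 5.47 in shCtrl and 4.05, 3.31 and 4.36 in shPTN, all lower, and fell by 1.44 (SE 0.27, limma adjusted p = 0.00662). The proline synthesis enzyme Pycr1 (-0.70, limma adjusted p = 0.0158) and the isoleucine tRNA ligase Iars (-0.70, limma adjusted p = 0.000655) fell, and Atf5 (0.56, limma adjusted p = 0.00627), Slc38a2 (0.41, limma adjusted p = 0.0107) and the alanine tRNA ligase Aars (0.37, limma adjusted p = 0.016) rose. The knockdown effect on Atf3 differed between the lines by 2.17 (SE 0.46, limma adjusted p = 0.00475) and that on Slc38a2 by -1.03 (SE 0.14, limma adjusted p = 0.000163). In E0771, limma did not pass Pycr1 without shCtrl 2 (adjusted p = 0.0645) or shCtrl 3 (0.0828), Slc38a2 without shCtrl 2 (0.0533), shCtrl 3 (0.0568) or shPTN 3 (0.0581), or Aars without shCtrl 3 (0.0781) or shPTN 3 (0.0543).

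Of the 10 genes for the eIF2alpha kinases, phosphatase and exchange factor eIF2B, which set translation upstream of ATF4, 2 rose and 3 fell in E0771-LG, beside 24.3 and 22.1 percent of all genes. The gene of eIF2alpha itself (Eif2s1, 0.40, limma adjusted p = 0.01) and Eif2b4 (0.40, limma adjusted p = 0.0125) rose, and Eif2b5 (-0.36, limma adjusted p = 0.00814), Ppp1r15b (-0.31, limma adjusted p = 0.0212) and the heme-regulated kinase Eif2ak1 (-0.28, limma adjusted p = 0.0465) fell. After the correction, 1 of the 10 rose and 1 fell, Eif2s1 and Eif2b5, beside 1873 and 2268 of all 10405 genes. Eif2b4 (0.08), Ppp1r15b (-0.23) and Eif2ak1 (-0.19) did not pass then. By limma, Eif2s1 was lost without shPTN 2 (adjusted p = 0.0521), Ppp1r15b without shCtrl 3 (0.0603), shPTN 2 (0.07) or shPTN 3 (0.0836), and Eif2ak1 without shCtrl 2 (0.102), shCtrl 3 (0.154), shPTN 1 (0.103), shPTN 2 (0.0844) or shPTN 3 (0.127). In E0771, 0 of 10 rose and 4 fell, beside 8.89 and 11.7 percent of all genes, among them Eif2b3 (-0.58, limma adjusted p = 0.00363), the double-stranded RNA kinase Eif2ak2 (-0.41, limma adjusted p = 0.0448) and the amino acid sensor Eif2ak4 (-0.39, limma adjusted p = 0.017). By limma, Eif2ak2 was lost in E0771 after the correction (0.0582) and without shCtrl 2 (adjusted p = 0.17), shCtrl 3 (0.12), shPTN 1 (0.0985) or shPTN 2 (0.0601), and Eif2ak4 without shCtrl 2 (0.0686). Eif2ak2 was also lost by limma with no filter (adjusted p = 0.088), with median-of-ratios scaling (0.0571) and in 1 fit of the 12 cell samples (0.381), and Eif2ak4 in the last (0.138).

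Chaperones of other compartments served for comparison, beside the same shares of all genes (24.3 percent higher and 22.1 percent lower in E0771-LG, 8.89 and 11.7 percent in E0771). Of 10 cytosolic heat shock genes tested in E0771-LG, 2 rose, Hsp90aa1 (0.45, limma adjusted p = 0.00145) and Hsp90ab1 (0.29, limma adjusted p = 0.0358), and 2 fell, Hspa1b (-0.94, limma adjusted p = 0.00101) and Hsph1 (-0.57, limma adjusted p = 0.00258). Of 11 in E0771, 3 rose, Hspb1 (1.26, limma adjusted p = 0.0118), Hsp90aa1 (0.42, limma adjusted p = 0.0344) and Chordc1 (0.41, limma adjusted p = 0.00779), and 0 fell. Of 8 mitochondrial chaperones and proteases, Hspe1 rose (0.36, limma adjusted p = 0.0123; corrected -0.02, limma adjusted p = 0.914) and Hspa9 fell (-0.28, limma adjusted p = 0.0116) in E0771-LG, and Trap1 fell in E0771 (-0.37, limma adjusted p = 0.0149). After the correction for length and GC, 1 heat shock gene rose and 3 fell in E0771-LG, 4 rose in E0771, and 0 mitochondrial genes rose and 2 fell in E0771-LG. Over all genes, that fit gave 1873 higher and 2268 lower of 10405 in E0771-LG, and 1298 higher of 10394 in E0771. Hsp90ab1 did not pass after the correction (0.11, limma adjusted p = 0.396), with no filter (0.0746), with median-of-ratios scaling (0.0512) or without the robust option (0.059). By limma, calls in E0771-LG were lost for Hsp90ab1 without shPTN 1 (adjusted p = 0.121), shPTN 2 (0.0933) or shPTN 3 (0.0753), for Hspe1 without shPTN 2 (0.0548) and for Hspa9 without shPTN 3 (0.0501). In E0771 they were lost by limma for Hsp90aa1 without shCtrl 1 (adjusted p = 0.0581), shCtrl 2 (0.084), shCtrl 3 (0.141), shPTN 2 (0.0505) or shPTN 3 (0.0902). They were also lost by limma for Hspb1 without shCtrl 3 (0.053) or shPTN 3 (0.0636), for Chordc1 without shCtrl 3 (0.0514) and for Trap1 without shCtrl 2 (0.0657) or shPTN 3 (0.0813). Hsp90aa1 was lost by limma in E0771 with no filter (adjusted p = 0.0744), and Hspb1 in 1 fit of the 12 cell samples (0.363).

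Some markers of cell type moved with the knockdown in the cultures. In E0771-LG the summed level of the 6 epithelial markers was 158, 204 and 164 CPM in shCtrl and 424, 564 and 515 in shPTN, with Krt8 the most abundant gene in all 6 samples. Krt19 was at 0 in all shCtrl samples, Cdh1 in shCtrl 1 and 2, and Cldn7 in all shPTN samples. In E0771 the same sum was 99.3, 114 and 107 against 115, 98.9 and 108, again led by Krt8, with Krt19 at 0 in every sample, Cldn7 in shPTN 2 and 3 and Krt18 in shPTN 3. The 6 fibroblast markers summed to 69.4, 92.5 and 79.8 in shCtrl and 312, 268 and 312 in shPTN of E0771, led by Pdgfra in shCtrl and by Col3a1 in shPTN, with Lum at 0 in shCtrl and in shPTN 2 and Dcn in shPTN 2. The pan-leukocyte markers of E0771 summed to 15.4, 21.4 and 19.6 in shCtrl and 47.6, 32.3 and 38.3 in shPTN, led by Coro1a, with Cd52 at 0 in all but shPTN 1, Ptprc in all but shCtrl 1 and shPTN 2, and Cd53 in shCtrl 1. The macrophage markers there summed to 11.7, 22.3 and 16.9 against 42.8, 30.5 and 36.6. They were led by Lyz2 or, in shCtrl 2 and 3, by Cd68, with C1qa at 0 in every sample and Adgre1, Csf1r and C1qb in some. The rise was that of Lyz2 (108, 141 and 110 reads against 713, 459 and 497). Cd68 did not share it (94, 311 and 171 reads against 114, 83 and 72). In E0771-LG the pan-leukocyte markers summed to 91.6, 88.5 and 88.6 in shCtrl and 47.4, 52.9 and 56.0 in shPTN, nearly all of it Laptm5, with Ptprc at 0 in shCtrl 1 and 3 and Cd52 in shCtrl 1 and shPTN 1 and 2, and Coro1a went the other way (51, 104 and 72 reads against 87, 156 and 147). The fibroblast markers there summed to 76.3, 117 and 92.4 against 53.8, 54.3 and 61.4, led by Pdgfra, with Lum at 0 in shCtrl 2 and shPTN 1 and 2, while Dcn (19, 30 and 5 reads against 34, 61 and 49) and Col1a2 (8, 21 and 15 against 48, 46 and 19) went the other way. The sum of the 4 endothelial markers in the table, none at 0, was 224, 211 and 206 against 146, 150 and 147 and was nearly all Eng, while Pecam1 had 1, 12 and 7 reads against 14, 24 and 16, and Fabp4, the 1 adipocyte marker in the table, was at 10.9, 18.3 and 12 against 1.18, 3.93 and 3.04. The macrophage markers of E0771-LG summed to 3.58, 4.19 and 6.29 in shCtrl and 9.57, 14.3 and 13.8 in shPTN, led by Lyz2. Adgre1, C1qa and C1qb were at 0 throughout. Of these markers 2 were tested, and both passed limma as higher, beside 24.3 percent of all genes. Csn3, the 1 milk protein gene above 0 there, was at 1.79, 4.03 and 3.17 against 10.3, 12.3 and 13.8. It passed limma as higher too (log2 fold change 2.07). So the separately selected populations differed in some lineage markers as well as in some stress genes. The share of stress genes called was near that of all genes in E0771-LG (48.6 against 46.4 percent) and under it in E0771 (11.4 against 20.6 percent). The part of the marker differences in the stress results was not tested. Igkc and Ighm, the plasma cell markers in the table, were at 0 in all 12 cell samples.

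In 4T1 tumors none of the 35 genes passed limma at an adjusted p under 0.05 (smallest 0.725), and 2 had an unadjusted p under 0.05, against 719 of all 11467 genes (6.27 percent). Values here are log2 levels already adjusted for gene length. Manf, a secreted ER stress factor, was at 6.85, 6.74 and 6.98 with C44 and 7.09, 7.40 and 7.17 with 3B10, and Herpud1 at 5.71, 5.65 and 5.59 against 5.86, 6.47 and 5.97. Both sets of groups were separate, by small margins (Manf 0.37, SE 0.13, limma unadjusted p = 0.0219; Herpud1 0.45, SE 0.17, limma unadjusted p = 0.0333). Sesn2, an ATF4 target that restrains growth signaling, was at 3.10, 3.32 and 2.61 against 2.35, 2.70 and 2.40, with C44 3 inside the 3B10 range (-0.53, SE 0.23, limma unadjusted p = 0.0543).

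The central stress genes overlapped between 4T1 groups: Hspa5 at 10.40, 10.21 and 9.82 against 10.15, 10.63 and 10.32, Xbp1 at 7.63, 7.50 and 7.78 against 7.68, 7.86 and 7.58, and Atf4 at 8.45, 8.27 and 8.07 against 8.58, 8.29 and 8.47. Ddit3 was at 5.03, 5.49 and 4.81 against 5.45, 4.42 and 4.82. No direction was shared by all samples of a group for any of these. The median log2 fold change of the 35 was -0.02 against 0.01 over all genes, 0.00 for the 23 ER genes and -0.09 for the ATF4 arm, and the extremes were Slc7a11 (-0.54, SE 0.57) and Herpud1.

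Levels of cell type markers varied among the 4T1 tumors with no marker passing limma at an adjusted p under 0.05, and in bulk tumors fewer cells of a type and less RNA per cell cannot be told apart. The 6 epithelial markers, led by Krt18 and none at 0, summed to 3230, 3500 and 3490 with C44 and 4830, 4420 and 5130 with 3B10, and the 5 pan-leukocyte markers, none at 0, to 950, 920 and 961 against 758, 813 and 586. The 6 macrophage markers, led by Lyz2 and none at 0, summed to 11900, 8980 and 11200 against 4980, 9150 and 5640, and the 4 skeletal muscle markers in the table to 12.7, 11.8 and 27.1 against 39.4, 167 and 254, led by Tnnt3 except in 3B10 2 (Acta1), with Myh4 at 0 in C44 2 and 3. The macrophage sums of the groups overlap. The 4 neutrophil markers, led by S100a9 except in C44 3 (S100a8) and none at 0, summed to 1120, 1050 and 1880 against 1160, 734 and 579, groups that overlap. All 4 had a log2 fold change under 0 (median -0.68). A limma unadjusted p under 0.05 was found for 3 of these 4, beside 6.27 percent of all genes. It was also found for 4 of 6 epithelial, 3 of 6 macrophage, 2 of 5 pan-leukocyte, 2 of 6 fibroblast and 3 of 3 skeletal muscle markers tested. Among 4 endothelial and 2 plasma cell markers it was found for 0. The 6 fibroblast markers, led by Col1a1 and none at 0, summed to 1290, 1740 and 1140 against 941, 4010 and 1600, so 3B10 2, the sample with the highest Manf and Herpud1, stood apart. The 2 plasma cell markers in the table, none at 0, summed to 20.4, 29.8 and 470 against 27.3, 33.4 and 29.2, led by Ighm except in C44 3 (Igkc). The part of these differences in the values of Manf and Herpud1 was not tested.

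In PyMT tumors none of the 35 genes passed limma at an adjusted p under 0.05, and 0 had an unadjusted p under 0.05, against 307 of 11361 genes (2.7 percent). The smallest unadjusted p values were those of Trib3, at 5.30, 4.92 and 4.73 log2 CPM with C44 and 5.37, 5.14 and 5.43 with 3B10 (0.33, SE 0.18, limma unadjusted p = 0.114), of Psat1, at 7.17, 7.60 and 7.77 against 7.71, 7.65 and 8.15 (0.32, SE 0.21, limma unadjusted p = 0.157), and of Canx, at 9.30, 9.17 and 9.36 against 8.89, 8.92 and 9.35 (-0.22, SE 0.17, limma unadjusted p = 0.236). All 3 pairs of groups overlapped. Hspa5 was at 10.12, 10.19 and 11.13 against 10.18, 10.55 and 11.01, with the highest value in C44 3. Xbp1 was at 10.54, 10.58 and 10.77 against 10.45, 10.68 and 11.24, Atf4 at 7.94, 7.16 and 7.41 against 7.53, 7.46 and 7.56, and Ddit3 at 4.12, 3.24 and 4.29 against 3.46, 3.82 and 4.65, with no separation of groups. C44 3 and 3B10 3 held the highest values of most ER folding genes, such as P4hb (11.38 and 11.11, against 10.12 to 10.72 elsewhere). The median log2 fold change of the 35 was 0.06 against 0.05 over all genes.

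PyMT tumors differed among themselves in milk protein genes, whose 4 markers in the table summed to 9320, 10200 and 16100 CPM with C44 and 8200, 13500 and 9080 with 3B10, led by Csn3 and none at 0. Of the 4, 3 had a log2 fold change above 0 (median 1.38), and that of Csn1s1 was 2.37 (limma unadjusted p = 0.0138). Csn3 was at 7960, 8720 and 15800 CPM with C44 and 6790, 11200 and 6480 with 3B10, groups that overlap. The 6 epithelial markers, none at 0, summed to 5720, 5190 and 3850 against 4300, 4840 and 3840, with Epcam most abundant in C44 3 and Krt8 in the others. Reads on genes were also fewer with 3B10 (16.26, 16.29 and 18.44 M in ascending order) than with C44 (18.76 to 19.25 M). The part of milk gene content and depth in the PyMT values was not tested.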

How the data were processed

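RNA sequencing values of 12091 genes in 24 samples were used, 3 in each of 8 groups. Per the labels, the authors aligned reads with HISAT2 to mm10 (GRCm38), counted them over genes with featureCounts, and normalized with edgeR and limma. The deposited values are log2 levels. In the 18 PyMT, E0771 and E0771-LG samples they are log2 CPM with an offset of 0.5 reads, from which reads were recovered. The 4T1 values follow another scale, with a slope against the E0771-LG controls of -0.777 per doubling of gene length (PyMT 0.007, E0771 0.048), so they are length-normalized, their depth is unknown, and they were compared only with each other. Reads on genes per sample ranged from 16.26 to 19.25 M in PyMT, 15.63 to 20.42 M in E0771 and 17.3 to 21.12 M in E0771-LG. No per-sample column was left unused (0).

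Genes entered the test of an experiment when at least 3 of its 6 samples exceeded their own minimum by 1 after undoing the logarithm. A linear model was fitted in R 4.3.3 by limma 3.58.1, with moderated variances (robust, with a mean trend), and p-values were adjusted by the Benjamini-Hochberg method over all genes tested, with a threshold of 0.05. Differences between lines came from the interaction term over the 12 cell samples, with at least 6 passing the filter. The test of the authors' edgeR workflow was replaced by limma because the values are on the log2 scale. An exact permutation of 3 against 3 samples cannot give a two-sided p under 0.1, so none was used. Scripts were tested on simulated data. Python 3.11.15 with numpy 2.4.6 and matplotlib 3.10.9 searched promoters and drew figures.

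The members and lists were chosen with earlier results of these data known. Every member was accounted for. Values in each sample were given for Ptn, Atf4, Ddit3, Hspa5 and Xbp1, for up to 5 called members per role, direction and line with groups apart, and for the 3 members with the smallest p in each tumor experiment, and each other list gave up to 3 called genes per direction and line with the largest change. A few further genes were named after their values were seen. Alternatives were no filter, a stricter filter (5), pseudocounts of 1 and 0.1, median-of-ratios scaling, eBayes without the robust option, voom weights on recovered reads, 1 fit of 12 samples, a replicate block, and leaving out each library. The correction of each sample for gene length and GC content (splines with 5 degrees of freedom) was chosen after seeing the data.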

Additional observations from a re-analysis of the deposited data

Results flagged for a closer look

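For 14 of the 35 genes the effect of the knockdown differed between the 2 cell lines by the limma interaction term, which is what marked them. Their share was 40.0 percent, against 34.3 percent of 10395 genes. The effect in E0771-LG minus that in E0771, on the log2 scale, was 1.54 for Ddit3, 1.49 for Chac1, 1.06 for Atf4, 0.98 for Trib3, 0.77 for Creld2, 0.75 for Xbp1, 0.71 for Pdia4, 0.70 for Ppp1r15a, 0.58 for Hspa5 and 0.43 for Asns. It was -0.64 for Ern1, -0.44 for Psat1, -0.42 for Sel1l and -0.40 for Dnajc3. With the correction for gene length and GC content, 10 of 35 genes passed (28.6 percent, against 32.8 percent of all genes). Pdia4, Creld2, Sel1l, Asns and Ppp1r15a were then lost and Dnajb9 was gained. Hspa5, Pdia4, Dnajc3, Sel1l, Asns and Ppp1r15a did not pass in every fit with 1 library left out.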

How the results depend on the processing

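Of 5803 values of single genes under alternatives, 5530 kept their side of the limma threshold, 282 of them with a change of sign while passing in neither fit, 183 no longer passed, 89 newly passed and 1 changed sign from a passing value, Hspe1 in E0771-LG, which with the correction for gene length and GC content was near 0 and no longer passed (-0.0161, limma adjusted p = 0.914). That correction, chosen after seeing the data, gave 5 ER genes (2 without it) and 6 ATF4 arm genes (2) in E0771. The share of all genes called there was 26.6 percent with it and 20.6 percent without it. In E0771-LG it gave 6 ER genes (11), and the share of all genes was 39.8 percent (46.4 percent). The cause was not tested. Leaving out 1 library gave 1 to 4 ER genes and 1 to 4 ATF4 arm genes in E0771, 5 to 14 and 5 to 8 in E0771-LG, 0 in both tumor experiments, and 8 to 16 differences between lines. With fewer samples the limma fit has fewer degrees of freedom. The other alternatives kept every count within 1.5 times, with 9 to 15 ER genes in E0771-LG and 13 to 15 differences between lines.

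The replicate number taken as a block in the limma fit gave 3 ER (Edem1 gained) and 2 ATF4 arm genes in E0771, 12 and 7 in E0771-LG (Herpud1 and Ppp1r15a gained), 14 differences between lines (Asns lost, limma adjusted p = 0.0512, and Atf6 gained, 0.00514), and 0 in both tumor experiments. Among the other genes named, Eif2ak1 in E0771-LG did not pass with it (limma adjusted p = 0.0612). The pairing check gave correlations of same-numbered samples of -0.327, 0.436 and -0.253 in 4T1, -0.036, 0.132 and 0.208 in PyMT, -0.027, 0.141 and -0.037 in E0771, and 0.158, 0.237 and -0.117 in E0771-LG, so the numbers were not taken as pairs. Genes with few reads were Slc7a11 in PyMT (22 to 40 reads per sample) and, to a lesser degree, Chac1 in E0771 (174 to 331). The part of depth in their values was not tested.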
